A study of Mus musculus with 15 samples.

Results

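The Nrf2 antioxidant genes described here are 9 genes: the regulators Nfe2l2 and Keap1, and the antioxidant genes Nqo1, Gclc, Gclm, Txnrd1, Srxn1, Gsr and Hmox1. They were chosen by name, from probe sets annotated with exactly 1 of these symbols, and all 9 were found among 22180 measured genes, on 10 of 41345 probe sets. Keap1 had 2 such probe sets, and the brighter of them, by its mean over the 15 arrays, was used for the gene. Each other gene had 1. RNA was hybridised to Affymetrix arrays from melan-Ink4a-Arf-1 (melan-a), an immortalised pigment cell line from Cdkn2a tm1RDp/tm1RDp mice, so every group lacks this tumour suppressor locus and represents the same line. All cells grew at 37 °C with 10% serum, 200 nM of a phorbol ester and 200 pM cholera toxin. The normoxia group was kept at about 21% oxygen and 10% CO2. The hypoxia control, the negative control and the siRNA groups Si1 and Si6 spent 24 h at 1% oxygen, 5% CO2 and 94% nitrogen, so the effects of oxygen and of CO2 cannot be told apart. Si1 and Si6 were transfected 24 h before hypoxia with different small interfering RNAs against Hif1a, whose protein is the part of the HIF1 transcription factor that oxygen controls, and what the negative control received is not given in the labels. Each group had 3 arrays, which the series calls biological triplicates. The comparisons ask how low oxygen, and Hif1a siRNA under low oxygen, alter expression in this line.

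Nrf2, the protein encoded by Nfe2l2, is a transcription factor that binds antioxidant response elements together with small Maf proteins. Under basal conditions Keap1 holds Nrf2 in the cytoplasm and hands it to a Cullin 3 ubiquitin ligase for breakdown, and oxidants or electrophiles that modify Keap1 cysteines let Nrf2 accumulate. Much of this control acts on the protein, so the mRNA levels given here do not measure Nrf2 activity. Its targets make and recycle glutathione, run the thioredoxin system, reduce quinones and degrade heme. Pigment cells are known for a high oxidant load because melanin synthesis gives rise to quinones and hydrogen peroxide.

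The array medians of the deposited log2 intensities lay between 6.52 and 6.61, and arrays of the same group correlated at 0.9931 to 0.9957 over all probe sets. Hif1a mRNA in Si1 and Si6 was at 25.3% and 30.7% of the negative control level. All 10 melanocyte markers were measured, with means over all arrays from 8.46 (Kit) to 13.06 (Tyrp1), and their mean level was 11.71 to 11.77 on the normoxia arrays, 11.38 to 11.44 in the hypoxia control, 10.83 to 10.87 in the negative control, 10.53 to 10.58 in Si1 and 11.11 to 11.20 in Si6. The mean level of 4 leukocyte markers was 6.44 to 6.50 in Si1 and 5.97 to 6.23 in the other groups. Its defining marker Ptprc stayed at 4.34 to 4.63 on every array, and Cd68, a lysosomal protein also found outside leukocytes, ran from 7.81 to 9.79. Mean levels of the 6 fibroblast, 4 keratinocyte and 3 endothelial markers measured ran over all arrays from 6.09 to 6.56, 5.93 to 6.14 and 5.92 to 6.29. Of the fibroblast markers, Col1a1 had a mean of 8.56 and ran from 7.87 to 9.45, and the others had means from 4.35 to 7.38. The part of these shifts in the results below was not tested. Levels are log2 intensities, which do not compare 1 gene's abundance with another's. A ± after a change is the standard error from limma, with 3 arrays a group. Adjusted p-values are limma's, after Benjamini-Hochberg adjustment over all 22180 genes.

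The members past the test in hypoxia changed in both directions. Hmox1 and Nfe2l2 rose in the hypoxia control against normoxia, while Txnrd1, Gclc, Gsr and Srxn1 fell and Keap1, Nqo1 and Gclm did not pass the test. That is 6 of 9 genes past the test, 2 higher and 4 lower, where 21% of all genes passed, 9.87% higher and 11.2% lower. With Keap1 taken from its brighter probe set, Hmox1, at 1.20, and Txnrd1, at -0.77, were the only members with a change beyond 0.5. The other Keap1 probe set, described below, was at 2.17. The median change of the 9 was -0.17, against 0.00 over all genes.

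Hif1a siRNA under hypoxia raised Gclc, Txnrd1, Srxn1 and Gsr and lowered Hmox1 in both siRNA groups. Against the negative control, Si1 had 4 members higher (Gclc, Txnrd1, Srxn1 and Gsr) and 3 lower (Nfe2l2, Nqo1 and Hmox1), so 7 of 9 passed where 34.9% of all genes did, 20.2% higher and 14.8% lower. Si6 had 5 higher (the same 4 and Gclm) and 1 lower (Hmox1), so 6 of 9 passed where 28.9% of all genes did, 17% higher and 11.9% lower. The median change was 0.13 with Si1 and 0.34 with Si6, against -0.01 over all genes in each. Both comparisons use the same 3 negative control arrays.

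The hypoxia comparison and the siRNA comparison share no arrays, and their directions can be set side by side. All 4 members that fell in hypoxia (Txnrd1, Gclc, Gsr and Srxn1) were higher with the mean of both siRNAs than in the negative control. Both members that rose in hypoxia (Hmox1 and Nfe2l2) were lower, Hmox1 in each siRNA group and Nfe2l2 in Si1 alone (-0.82), with Si6 at -0.07 (adjusted p = 0.406). Among all genes, 60.3% of the 2474 that fell in hypoxia rose with the siRNA mean, 34.2% of the 4367 that rose with it, and 51% of the 2190 that rose in hypoxia fell with it, 36.5% of the 3059 that fell with it. The patterns of opposite change covered 6.73% and 5.03% of all genes. In the siRNA mean against the negative control, 8 of 9 members passed, 5 higher and 3 lower, where 33.5% of all genes passed, 19.7% higher and 13.8% lower. Of these 8, Nqo1 passed in Si1 and not in Si6, and Gclm in Si6 and not in Si1.

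**Figure D1:**
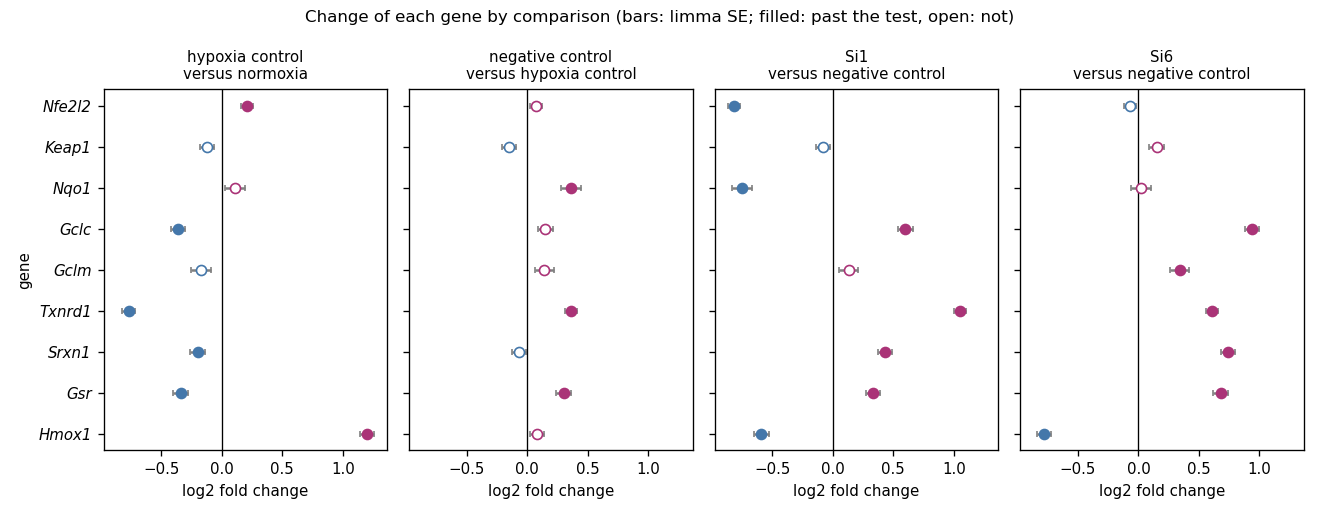
Log2 fold change (horizontal axis) of each of the 9 genes (vertical axis) in 4 comparisons, with bars for limma's standard error, filled symbols for genes past the test, magenta for positive and blue for negative changes. Keap1 is drawn from its brighter probe set. Hmox1 is the most positive in the hypoxia panel at 1.20 and negative in both siRNA panels, while Txnrd1 runs from -0.77 in hypoxia to 1.05 with Si1.

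**Figure D2:**
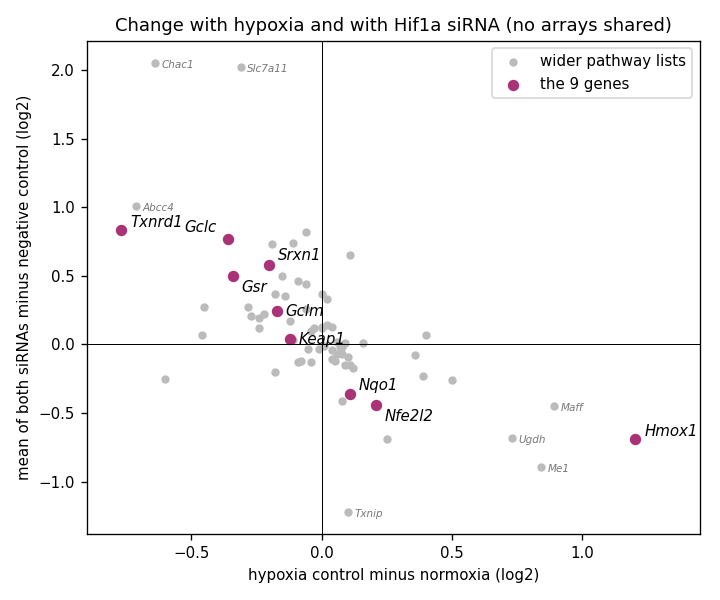
Change in hypoxia (hypoxia control minus normoxia, horizontal axis, log2) against the change with Hif1a siRNA (mean of both siRNAs minus negative control, vertical axis, log2) for the 9 genes in magenta and 62 genes of the wider pathway lists in grey. Txnrd1, Gclc, Gsr, Srxn1, Gclm and Keap1 lie left of 0 and above it, and Hmox1, Nfe2l2 and Nqo1 lie right of 0 and below it, although Keap1, Gclm and Nqo1 did not pass the hypoxia test. Keap1 is drawn from its brighter probe set, and the dimmer one, not drawn, was at 2.17 and -1.92.

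The regulator Nfe2l2 showed its main change in Si1. On replicates a, b and c it measured 11.69, 11.64 and 11.70 in normoxia, 11.88, 11.86 and 11.92 in the hypoxia control, 11.88, 11.97 and 12.04 in the negative control, 11.17, 11.09 and 11.17 in Si1 and 11.86, 11.91 and 11.91 in Si6. All Si1 arrays lay below every other array. The hypoxia control arrays lay above the normoxia arrays, a rise of 0.21 ± 0.05 (adjusted p = 0.008). Against the negative control Nfe2l2 fell by 0.82 on the log2 scale in Si1, to 56.8% (adjusted p = 6.1e-09), and was at -0.07 in Si6 (95% interval -0.18 to 0.04, adjusted p = 0.406). The difference between the siRNAs itself was -0.75 ± 0.05 for Si1 against Si6 (adjusted p = 3.0e-08). From the highest mean to the lowest the groups ran negative control, Si6, hypoxia control, normoxia and Si1, of which the first 3 did not differ detectably between neighbours.

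**Figure D3:**
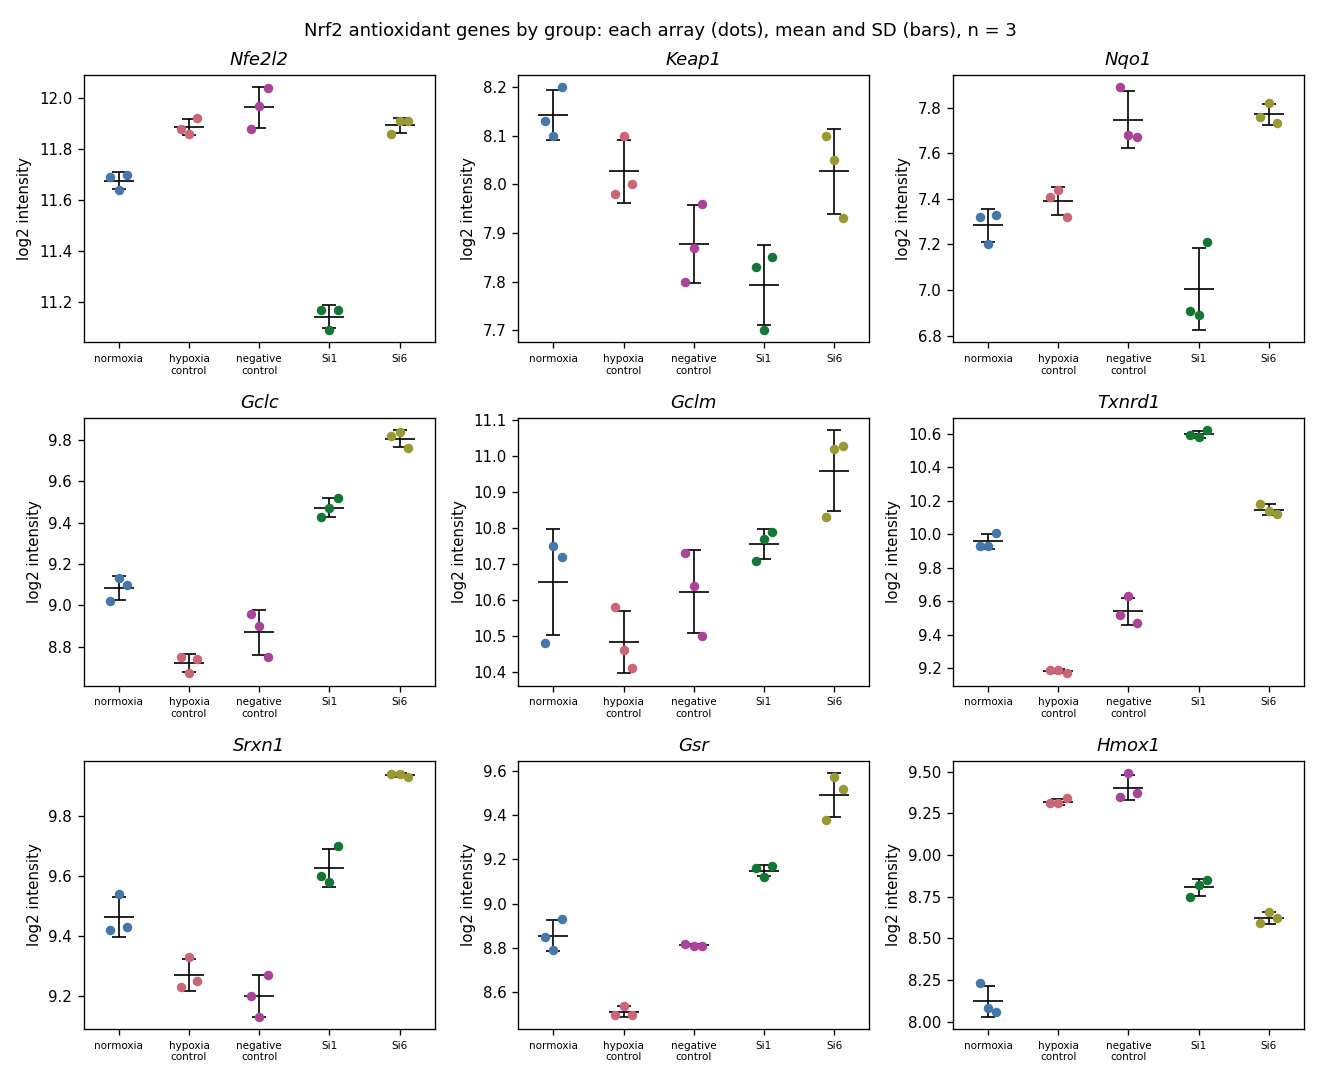
Log2 intensity (vertical axis, a separate scale in each panel) of the 9 genes in 5 groups, with a dot for each array and the mean and SD of 3 arrays. Nfe2l2 and Nqo1 are lowest in Si1, Gclc, Gclm, Srxn1 and Gsr are highest in Si6, Txnrd1 is highest in Si1, and Hmox1 is lowest in normoxia.

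Keap1, the adaptor that targets Nrf2 for degradation, gave different answers from its 2 probe sets. The brighter one (17524659, mean 7.97) measured 8.13, 8.10 and 8.20 in normoxia, 7.98, 8.10 and 8.00 in the hypoxia control, 7.80, 7.87 and 7.96 in the negative control, 7.83, 7.70 and 7.85 in Si1 and 8.10, 8.05 and 7.93 in Si6. The group means spanned 0.35, and no neighbours in their order (normoxia, Si6, hypoxia control, negative control, Si1) differed detectably. Groups farther apart did differ: the negative control was -0.27 ± 0.06 (adjusted p = 0.004) and Si1 -0.35 ± 0.06 (adjusted p = 3.5e-04) from normoxia, and Si1 was -0.23 ± 0.06 from the hypoxia control (adjusted p = 0.009). The last call was lost without the second Si1 array (-0.18, adjusted p = 0.052) or the second hypoxia control array (-0.19, adjusted p = 0.052). Hypoxia gave -0.12 ± 0.06 (adjusted p = 0.240), Si1 -0.08 ± 0.06 (adjusted p = 0.396) and Si6 0.15 ± 0.06 (adjusted p = 0.099). Without the third Si6 array the last of these passed, at 0.20 (adjusted p = 0.045, and 1.5e-09 to 0.297 over all alternatives). The low end of that range came from the dimmer probe set, where the change had the opposite sign, at -1.95. Between the siRNAs, Si1 was lower than Si6 by -0.23 ± 0.06 (adjusted p = 0.013), a call lost without the second Si1 array (-0.19, adjusted p = 0.067) or the first Si6 array (-0.19, adjusted p = 0.063), with a range of 0.004 to 0.804 over all alternatives.

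The dimmer Keap1 probe set (17515128, mean 7.72) was high in both hypoxic controls and low elsewhere. It measured 7.04, 6.58 and 6.73 in normoxia, 8.91, 8.94 and 9.01 in the hypoxia control, 8.99, 8.80 and 8.93 in the negative control, 6.96, 7.11 and 6.96 in Si1 and 6.82, 6.96 and 7.10 in Si6. Every array of both hypoxic controls lay above every array of the other groups. Hypoxia raised it by 2.17 ± 0.10, and against the negative control it stood at -1.90 ± 0.10 in Si1 and -1.95 ± 0.10 in Si6, with limma adjusted p-values over all single-symbol probe sets of 6.6e-10, 9.4e-10 and 1.7e-09. The carbonic anhydrase gene Car9, a known hypoxia gene, was at 6.52, 9.44, 9.22, 7.00 and 6.83 in the same groups. Of the genes beside Keap1 in the RefSeq table (GRCm38.p6), picked after these values were seen, Pde4a changed by 0.22 ± 0.05 in hypoxia and -0.24 ± 0.05 with the siRNA mean, and S1pr5 by 0.07 ± 0.10 and -0.10 ± 0.08. Which transcript this probe set detects was not tested.

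**Figure D4:**
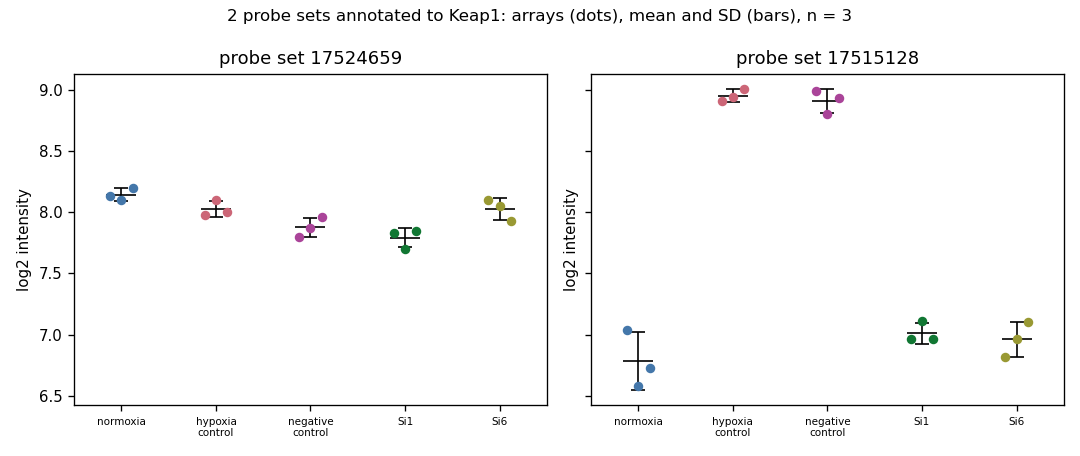
Log2 intensity (vertical axis, shared) of the 2 probe sets annotated to Keap1 in 5 groups, with a dot for each array and the mean and SD of 3 arrays. The brighter probe set spans 0.35 between group means, while the dimmer one rises from 6.79 in normoxia to 8.95 in the hypoxia control and is at 7.01 and 6.96 in the siRNA groups.

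Nqo1, which reduces quinones by transferring 2 electrons at once, was higher in the negative control and Si6 than in the other groups and lowest in Si1. It measured 7.32, 7.20 and 7.33 in normoxia, 7.41, 7.44 and 7.32 in the hypoxia control, 7.89, 7.68 and 7.67 in the negative control, 6.91, 6.89 and 7.21 in Si1 and 7.76, 7.82 and 7.73 in Si6. The hypoxia control overlapped normoxia, and the change was 0.11 ± 0.08 (95% interval -0.07 to 0.29, adjusted p = 0.443). The negative control lay above the hypoxia control by 0.36 ± 0.08 (adjusted p = 0.008), although both were hypoxic. Si1 lowered Nqo1 by -0.75 ± 0.08 against the negative control, to 59.7% (adjusted p = 2.8e-06), while Si6 gave 0.02 ± 0.08 (95% interval -0.15 to 0.20, adjusted p = 0.886). Si1 against Si6 gave -0.77 ± 0.08 (adjusted p = 3.5e-06). Si1 was also below normoxia, at -0.28 ± 0.08 (adjusted p = 0.013), a call lost without the first Si1 array (-0.23, adjusted p = 0.064) or the second (-0.22, adjusted p = 0.068).

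Glutamate cysteine ligase carries out the rate-limiting step of glutathione synthesis, with Gclc as the catalytic subunit and Gclm as the modifier. Gclc measured 9.02, 9.13 and 9.10 in normoxia, 8.75, 8.67 and 8.74 in the hypoxia control, 8.96, 8.90 and 8.75 in the negative control, 9.43, 9.47 and 9.52 in Si1 and 9.82, 9.84 and 9.76 in Si6. The siRNA arrays lay above all others without overlap, and the hypoxia control arrays lay below normoxia. Hypoxia lowered Gclc by -0.36 ± 0.06, to 77.7% (adjusted p = 2.9e-04). Against the negative control it rose 1.52-fold in Si1 (0.60 ± 0.06, adjusted p = 6.7e-07) and 1.91-fold in Si6 (0.94 ± 0.06, adjusted p = 1.3e-08), and the siRNAs differed by -0.33 ± 0.06 (adjusted p = 3.8e-04). The siRNA mean was also above normoxia, by 0.56 ± 0.05 (adjusted p = 2.8e-07). The negative control was between the hypoxia control (0.15 ± 0.06 above it, adjusted p = 0.109) and normoxia (-0.21 ± 0.06, adjusted p = 0.011). Without the third negative control array these became 0.21 (adjusted p = 0.024, range 0.024 to 0.366) and -0.15 (adjusted p = 0.060, range 0.003 to 0.060).

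Gclm changed less and was more scattered. It measured 10.48, 10.75 and 10.72 in normoxia, 10.58, 10.46 and 10.41 in the hypoxia control, 10.73, 10.64 and 10.50 in the negative control, 10.71, 10.77 and 10.79 in Si1 and 10.83, 11.02 and 11.03 in Si6. Si6 alone lay above every array of the other groups, and it was 0.34 ± 0.08 above the negative control (adjusted p = 0.005). Si1 was at 0.13 ± 0.08 (95% interval -0.04 to 0.31, adjusted p = 0.252), and Si1 against Si6 did not pass the test (-0.20 ± 0.08, adjusted p = 0.083). That difference passed without the first Si6 array (-0.27, adjusted p = 0.036) or the first normoxia array (-0.20, adjusted p = 0.048), with a range of 0.035 to 0.236. Hypoxia gave -0.17 ± 0.08 (adjusted p = 0.196), which became -0.25 (adjusted p = 0.041, range 0.041 to 0.478) without the low first normoxia array. The rise in the siRNA mean against the negative control, 0.24 ± 0.07 (adjusted p = 0.018), was 0.17 (adjusted p = 0.120, range 0.005 to 0.120) without the third negative control array.

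Gsr, the reductase that returns oxidised glutathione to its reduced form, ran close to Gclc. It measured 8.85, 8.79 and 8.93 in normoxia, 8.50, 8.54 and 8.50 in the hypoxia control, 8.82, 8.81 and 8.81 in the negative control, 9.16, 9.12 and 9.17 in Si1 and 9.38, 9.57 and 9.52 in Si6. The 3 hypoxia control arrays were the lowest and the 3 Si6 arrays the highest. Gsr fell in hypoxia by 0.34 on the log2 scale (adjusted p = 3.2e-04), yet the negative control was 0.30 ± 0.06 above the hypoxia control (adjusted p = 0.001) and not detectably different from normoxia (-0.04 ± 0.06, 95% interval -0.16 to 0.08, adjusted p = 0.659). So the fall was seen in the hypoxia control and not in the other hypoxic control. Si1 raised it by 0.33 ± 0.06 (adjusted p = 1.6e-04) and Si6 by 0.68 ± 0.06 (adjusted p = 2.2e-07) over the negative control. Si1 was 0.34 ± 0.06 below Si6 (adjusted p = 2.0e-04). The centred group means of Gclc and Gsr differed by a root mean square of 0.097, the smallest of the 36 member pairs.

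With Keap1 taken from its brighter probe set, Txnrd1, the cytosolic thioredoxin reductase, had the widest span of group means of the 9 genes, 1.41. It measured 9.93, 9.93 and 10.01 in normoxia, 9.19, 9.19 and 9.17 in the hypoxia control, 9.52, 9.63 and 9.47 in the negative control, 10.59, 10.58 and 10.62 in Si1 and 10.18, 10.14 and 10.12 in Si6. No groups overlapped, and every neighbouring pair in the order Si1, Si6, normoxia, negative control, hypoxia control passed the test. Hypoxia lowered it to 58.6% (-0.77 ± 0.05, adjusted p = 4.1e-08), which ranked 92 among all genes by size of fall. Against the negative control it rose 2.07-fold in Si1 (1.05 ± 0.05, adjusted p = 3.5e-10) and 1.52-fold in Si6 (0.61 ± 0.05, adjusted p = 2.8e-07). Si1 was 0.44 ± 0.05 above Si6 (adjusted p = 6.5e-06), the opposite order to Gclc, Gsr and Srxn1. The negative control was 0.36 ± 0.05 above the hypoxia control (adjusted p = 1.5e-04) and -0.41 ± 0.05 from normoxia (adjusted p = 1.1e-05).

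Srxn1, which restores over-oxidised peroxiredoxins, changed little in hypoxia and more with Hif1a siRNA. It measured 9.42, 9.54 and 9.43 in normoxia, 9.23, 9.33 and 9.25 in the hypoxia control, 9.20, 9.13 and 9.27 in the negative control, 9.60, 9.58 and 9.70 in Si1 and 9.94, 9.94 and 9.93 in Si6. Both hypoxic controls lay below normoxia, and both siRNA groups lay above it. The hypoxia change of -0.20 ± 0.06 passed the test (adjusted p = 0.019) but was lost without the first hypoxia control array (-0.18, adjusted p = 0.080), the third one (-0.19, adjusted p = 0.061) or the second normoxia array (-0.16, adjusted p = 0.097), with a range of 0.005 to 0.097. Over the negative control Srxn1 rose by 0.43 ± 0.06 in Si1 (adjusted p = 1.5e-05) and 0.74 ± 0.06 in Si6 (adjusted p = 9.5e-08), and Si1 was 0.31 lower than Si6 (-0.31 ± 0.06, adjusted p = 5.2e-04). The negative control against the hypoxia control did not pass the test (-0.07 ± 0.06, adjusted p = 0.512). Si1 exceeded normoxia by 0.16 ± 0.06 (adjusted p = 0.031), a call lost without the third Si1 array (0.12, adjusted p = 0.131), the first normoxia array (0.14, adjusted p = 0.105) or the third (0.15, adjusted p = 0.090).

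Hmox1, the inducible enzyme that degrades heme to biliverdin, iron and carbon monoxide, changed in the opposite direction to Txnrd1, Gclc, Gsr and Srxn1 in the hypoxia control against normoxia and in each siRNA group against the negative control. It measured 8.23, 8.08 and 8.06 in normoxia, 9.31, 9.31 and 9.34 in the hypoxia control, 9.35, 9.49 and 9.37 in the negative control, 8.75, 8.82 and 8.85 in Si1 and 8.59, 8.66 and 8.62 in Si6. The siRNA groups lay between normoxia and the hypoxic controls without overlap. Hypoxia raised it 2.29-fold (1.20 ± 0.06, adjusted p = 7.9e-10), the rank 87 rise among all genes. Against the negative control it was at 66.3% in Si1 (-0.59 ± 0.06, adjusted p = 5.4e-07) and 58.2% in Si6 (-0.78 ± 0.06, adjusted p = 6.3e-08). The siRNA mean stayed 0.59 ± 0.05 above normoxia (adjusted p = 9.4e-08). For comparison, Bnip3, a strongly induced hypoxia gene, rose by 4.44 ± 0.07 in hypoxia and was 0.65 ± 0.06 above normoxia with the siRNA mean. Hmox1 was 0.19 ± 0.06 higher in Si1 than in Si6 (adjusted p = 0.020), but the call was lost without the second Si1 array (0.18, adjusted p = 0.057), the third Si1 array (0.17, adjusted p = 0.073), the first Si6 array (0.17, adjusted p = 0.067) or the third Si6 array (0.19, adjusted p = 0.055), with a range of 0.006 to 0.073.

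The negative control and the hypoxia control, both hypoxic, were not equivalent for these genes. Nqo1, Txnrd1 and Gsr were higher in the negative control, 3 of 9 members past the test and 0 lower, where 15.3% of all genes passed, 7.8% higher and 7.51% lower. Against normoxia the negative control had 3 members higher (Nfe2l2, Nqo1 and Hmox1) and 4 lower (Keap1, Gclc, Txnrd1 and Srxn1), where 30.3% of all genes passed, 14.6% higher and 15.7% lower. The siRNA mean against normoxia had 6 higher (Gclc, Gclm, Txnrd1, Srxn1, Gsr and Hmox1) and 2 lower (Nfe2l2 and Keap1), where 37.5% passed, 20.8% higher and 16.7% lower. For Nfe2l2 the siRNAs lay on opposite sides of normoxia, Si1 at -0.53 ± 0.05 (adjusted p = 4.6e-07) and Si6 at 0.22 ± 0.05 (adjusted p = 0.004). The Gclm call, at 0.21 ± 0.07 (adjusted p = 0.030), was lost without the third Si1 array (0.20, adjusted p = 0.054), the second Si6 array (0.20, adjusted p = 0.059), the third Si6 array (0.19, adjusted p = 0.061) or the first normoxia array (0.13, adjusted p = 0.216). Between the siRNAs 8 of 9 members differed, Txnrd1 and Hmox1 higher in Si1 and Nfe2l2, Keap1, Nqo1, Gclc, Srxn1 and Gsr lower, where 27.9% of all genes differed, 14.5% higher in Si1 and 13.4% lower. For each of the 9 genes the Si1 arrays did not overlap the Si6 arrays, which held for 37.6% of all genes. Keap1 is counted here by its brighter probe set. The dimmer one was at 2.12 in the negative control against normoxia, 0.20 in the siRNA mean against normoxia and 0.05 in Si1 against Si6. Only the first of these passed the test, and the Si1 and Si6 arrays of that probe set overlapped.

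Promoter windows are shown for the 4 members whose windows held TGACNNNGC, a form of the core of the antioxidant response element. These are shown because Txnrd1, Srxn1 and Gclm rose with the siRNA mean and Nfe2l2 did not. The RefSeq promoter table (GRCm38.p6) held 8 windows for 6 of the 9 genes, each from 250 bases before to 50 after a gene start, with 3 windows for Txnrd1. It held none for Gclc, Gsr and Hmox1, so these were not searched. The search used TGACNNNGC and its reverse complement GCNNNGTCA, and matched letters are in capitals within sequences written 5′ to 3′ along the gene. The windows are chr2:75704614-75704913 (minus strand) for Nfe2l2, chr3:122245307-122245606 (plus strand) for Gclm, chr10:82858956-82859255 (plus strand) for Txnrd1 and chr2:152105274-152105573 (plus strand) for Srxn1.
Nfe2l2: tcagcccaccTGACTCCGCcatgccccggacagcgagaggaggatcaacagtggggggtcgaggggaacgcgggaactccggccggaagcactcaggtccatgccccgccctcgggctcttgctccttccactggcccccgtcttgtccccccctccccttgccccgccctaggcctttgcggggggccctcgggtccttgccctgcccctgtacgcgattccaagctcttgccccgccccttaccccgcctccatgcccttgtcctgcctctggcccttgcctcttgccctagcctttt
Gclm: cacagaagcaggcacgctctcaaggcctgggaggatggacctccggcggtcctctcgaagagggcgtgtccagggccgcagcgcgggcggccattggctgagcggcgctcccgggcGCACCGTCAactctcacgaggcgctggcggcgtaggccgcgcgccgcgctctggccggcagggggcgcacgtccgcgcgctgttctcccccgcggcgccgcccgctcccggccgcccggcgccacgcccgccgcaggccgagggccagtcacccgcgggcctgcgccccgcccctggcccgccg
Txnrd1: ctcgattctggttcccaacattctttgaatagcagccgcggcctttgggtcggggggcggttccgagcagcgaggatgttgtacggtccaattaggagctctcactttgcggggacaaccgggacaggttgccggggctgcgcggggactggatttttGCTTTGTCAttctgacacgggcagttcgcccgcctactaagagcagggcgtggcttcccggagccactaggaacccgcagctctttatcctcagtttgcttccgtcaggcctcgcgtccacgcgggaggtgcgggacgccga
Srxn1: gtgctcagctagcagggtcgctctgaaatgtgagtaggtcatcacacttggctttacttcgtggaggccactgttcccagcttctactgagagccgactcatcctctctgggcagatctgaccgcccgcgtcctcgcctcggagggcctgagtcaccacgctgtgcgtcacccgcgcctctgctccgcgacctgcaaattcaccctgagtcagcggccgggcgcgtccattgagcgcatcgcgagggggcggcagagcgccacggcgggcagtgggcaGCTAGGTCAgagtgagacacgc
The match began 240 bases before the start in Nfe2l2, 134 before it in Gclm and 92 before it in Txnrd1, and at base 29 of the transcript in Srxn1. The windows of Keap1 and Nqo1 and the other windows of Txnrd1 held no match to this motif. It was in 12.4% of all 32851 windows. The core of the hypoxia response element was searched as ACGTG and as GCGTG on both strands. These were in 19.6% and 32.4% of all windows. Among the 6 members with a window, Keap1 and Gclm held ACGTG, and Keap1, Gclm, Txnrd1 and Srxn1 held GCGTG. The E-box CACGTG contains ACGTG and reads the same on both strands, so it would give a match on each. In Keap1 and Gclm ACGTG was matched only as its reverse complement CACGT, so neither match was this E-box. A match describes letters only, and no binding was measured here.

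Other genes of the pathway were taken from 6 lists, 62 measured genes in all. In the hypoxia control against normoxia 8 rose and 12 fell, where 9.87% of all genes rose and 11.2% fell, with a median of 0.00. With the siRNA mean against the negative control 21 rose and 12 fell, where 19.7% of all genes rose and 13.8% fell, with a median of 0.03 against -0.01 over all genes.

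Among 11 measured partners and regulators of Nrf2, 1 rose and 1 fell in hypoxia (9.87% and 11.2% of all genes) and 3 rose and 2 fell with the siRNA mean (19.7% and 13.8% of all genes), so the counts are near those over all genes. Maff, a small Maf protein that pairs with Nrf2, was the one that rose, by 0.89 ± 0.08 (adjusted p = 5.6e-07), and with the siRNA mean it was at -0.45 ± 0.07 (adjusted p = 4.8e-05). Mafk, a related small Maf, fell by 0.28 in hypoxia (adjusted p = 0.005) and was 0.27 ± 0.06 higher with the siRNA mean (adjusted p = 0.001). That rise was seen in Si1, at 0.47 ± 0.07 (adjusted p = 2.9e-05), while Si6 was at 0.08 ± 0.07 (adjusted p = 0.452). Bach1, a repressor that competes with Nrf2 at shared sites and at Hmox1, was at -0.14 ± 0.06 in hypoxia (adjusted p = 0.142) and 0.35 ± 0.05 higher with the siRNA mean than in the negative control (adjusted p = 6.8e-05). The negative control itself was low, at -0.32 ± 0.06 from the hypoxia control (adjusted p = 0.001), and the Bach1 level was 9.24 in the hypoxia control, 9.30 in Si1 and 9.24 in Si6. Nfe2l1, the related factor Nrf1, was at 0.02 in hypoxia and rose by 0.33 ± 0.04 (adjusted p = 8.4e-06).

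Of 22 genes of glutathione synthesis, use and export, 2 rose and 8 fell in hypoxia, where 9.87% and 11.2% of all genes did. With the siRNA mean 9 rose and 3 fell, where 19.7% and 13.8% of all genes did. The cystine importer Slc7a11, which supplies the cysteine for glutathione, was at -0.31 ± 0.07 in the hypoxia control against normoxia (adjusted p = 0.004), but the negative control, also hypoxic, was 0.42 ± 0.07 above normoxia (adjusted p = 1.9e-04). Slc7a11 was at 2.02 ± 0.06 with the siRNA mean against the negative control (adjusted p = 3.1e-12). A second, dimmer Slc7a11 probe set (17397421, mean 4.20) gave 0.10 in the hypoxia control against normoxia and 0.00 with the siRNA mean. Chac1, which breaks glutathione down, was at -0.64 ± 0.08 in hypoxia (adjusted p = 2.6e-05) and 2.05 ± 0.07 with the siRNA mean (adjusted p = 8.9e-12). The exporter Abcc4 was at -0.71 ± 0.07 (adjusted p = 3.8e-06) and 1.01 ± 0.06 (adjusted p = 7.8e-09). The glutathione transferase Gsto1 depended on the siRNA, at 1.50 ± 0.08 in Si1 (adjusted p = 4.7e-10) and -0.05 ± 0.08 in Si6 (adjusted p = 0.695).

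In the thioredoxin and peroxiredoxin list, 8 genes were measured. In hypoxia 1 rose and 1 fell (9.87% and 11.2% of all genes), and with the siRNA mean 4 rose and 2 fell (19.7% and 13.8% of all genes). Txnip, which binds and inhibits thioredoxin, fell with the siRNA mean (-1.22 ± 0.04, adjusted p = 2.3e-11) and was at 0.10 ± 0.05 in hypoxia (adjusted p = 0.215). The mitochondrial peroxiredoxin Prdx3 rose by 0.50 ± 0.05 (adjusted p = 5.6e-07), from a negative control that was -0.19 ± 0.05 from the hypoxia control (adjusted p = 0.030), and the testis-rich reductase Txnrd3 by 0.44 ± 0.06 (adjusted p = 1.6e-05) with the siRNA mean. Prdx4, the peroxiredoxin of the endoplasmic reticulum, rose in hypoxia by 0.50 ± 0.09 (adjusted p = 0.001).

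Of 4 measured genes of NADPH supply, Me1, the cytosolic malic enzyme, rose in hypoxia by 0.84 ± 0.05 (adjusted p = 3.4e-08) and fell with the siRNA mean (-0.89 ± 0.05, adjusted p = 1.3e-09). Taldo1, of the pentose phosphate pathway, was at -0.06 ± 0.08 in hypoxia and rose by 0.82 ± 0.07 with the siRNA mean (adjusted p = 2.0e-07). Among 13 genes of quinone, heme and iron handling, 2 rose and 2 fell in hypoxia (9.87% and 11.2% of all genes) and 3 rose and 3 fell with the siRNA mean (19.7% and 13.8% of all genes). Nqo2, a quinone reductase related to Nqo1, rose by 0.96 ± 0.07 in Si1 (adjusted p = 4.9e-08) and 0.53 ± 0.07 in Si6 (adjusted p = 4.4e-05), where Nqo1 itself was at -0.75 and 0.02. Ugdh, which makes UDP-glucuronate, followed Hmox1 in direction, at 0.73 ± 0.05 in hypoxia (adjusted p = 8.1e-08) and -0.68 ± 0.04 with the siRNA mean (adjusted p = 1.2e-08). Osgin1 was at -0.45 ± 0.05 (adjusted p = 1.3e-05) and 0.27 ± 0.05 (adjusted p = 2.0e-04). Of the 4 superoxide and catalase genes, mitochondrial Sod2 was at 0.00 in hypoxia and rose by 0.37 ± 0.05 with the siRNA mean (adjusted p = 7.7e-06), while catalase (Cat) was at 0.16 ± 0.05 in hypoxia (adjusted p = 0.025). The Cat call was lost without the first (adjusted p = 0.057), the second (adjusted p = 0.068) or the third hypoxia control array (adjusted p = 0.076), and without the first (adjusted p = 0.068) or the second normoxia array (adjusted p = 0.071).

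For the 7 members whose group means spanned at least 0.5, the genes with the most similar profile were found by the root mean square difference of the 5 centred group means, in log2 units. A span of that size was seen in 26.4% of all genes. Nearest to Nfe2l2 was the deubiquitinase Usp9x (0.030), whose group means were 10.42 for normoxia, 10.61 for each of the hypoxic controls, 9.84 for Si1 and 10.59 for Si6. Nearest to Nqo1 was Septin10 (0.039), at 9.55 for normoxia, 9.69 for the hypoxia control, 9.95 for the negative control, 9.30 for Si1 and 10.06 for Si6. Txnrd1 lay nearest to Tinf2 (0.032), the growth factor Tgfb1 (0.038) and the replication licensing factor Cdc6 (0.039), Gclc to Tmed5 (0.044), Srxn1 to Kctd13 (0.037) and Gsr to Lrr1 (0.039). Hmox1 had no match as close, with Pdxp (0.075), the NAD synthesis enzyme Nampt (0.083) and Adm2 (0.094) nearest. These are descriptions over the 5 group means of these arrays.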

How the data were processed

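Per the labels' protocols, RNA from 15 cultures was biotin-labelled and hybridised to Affymetrix arrays. The authors deposited log2 intensities for 41345 probe sets, and the submitters' processing notes name RMA and Partek. The genome build and any batch step: not given in the sources used here. RMA equalises the arrays' distributions, so a shift of all genes together cannot be seen, and the array number limits the precision. Of the probe sets, 23521 had 1 gene symbol, 1814 several and 16010 none in the platform annotation. Each of 22180 genes was represented by its brightest probe set across the 15 arrays. Limma 3.58.1 (R 4.3.3) estimated a mean per group in 1 model of all 15 arrays, followed by eBayes, two-sided tests and a threshold of 0.05 on Benjamini-Hochberg adjusted p. The fit was tested on simulated data. Of 12 comparisons, 4 (each siRNA against normoxia and against the hypoxia control) were added later to order the groups. The series calls the arrays biological triplicates without saying more, so p-values measure the spread between these samples, which may be technical. The members and lists were chosen with earlier results of these data known. Named genes were the 9 members, Hif1a, known hypoxia genes, up to 4 genes per list with the largest change past the test, up to 3 nearest profiles, and genes beside Keap1, picked after its values were seen. Alternatives were other scalings, filters, probe-set rules, variance models, array weights, only the compared groups, the replicate block and each array left out.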

Additional observations from a re-analysis of the deposited data

Results flagged for a closer look

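The members' responses to the siRNAs were not the same, by the test of Si1 against Si6 itself. On the log2 scale Si1 minus Si6 was -0.75 for Nfe2l2, -0.77 for Nqo1, -0.23 for Keap1 by its brighter probe set, -0.33 for Gclc, -0.31 for Srxn1, -0.34 for Gsr, 0.44 for Txnrd1 and 0.19 for Hmox1. Each passed limma's test, with adjusted p-values from 3.0e-08 for Nfe2l2 to 0.020 for Hmox1. Hif1a itself was -0.28 ± 0.06 lower in Si1 than in Si6 (adjusted p = 0.001), and the part of this in the other differences was not tested.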

How the results depend on the processing

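Of 2808 recomputed values for the 108 changes of members, 2740 kept their side of the threshold with no change of sign at 2 decimals, 33 no longer passed, 16 newly passed and 19 changed sign, 13 of them for Keap1. With the mean of its probe sets Keap1 was at 1.02 in hypoxia, 0.93 in the negative control against normoxia, -0.90 in Si6 and -0.94 in the siRNA mean against the negative control, and 0.03 in Si6 against normoxia. With the dimmer probe set, chosen after seeing the data, these were 2.17, 2.12, -1.95, -1.92 and 0.17, and Si1 against Si6 was 0.05, the siRNA mean against normoxia 0.20 and Si1 against normoxia 0.22. Si6 against the hypoxia control, at 0.00 with the brighter probe set, was -1.0 and -1.99 under these 2 settings. The other 6 sign changes were of values near 0 that did not pass: with 1 array left out, Nqo1 in Si6 against the negative control ran from -0.01 to 0.09 and Gclm in the negative control against normoxia from -0.11 to 0.04, and Nfe2l2 in Si6 against the hypoxia control was at -0.02 after a further quantile normalization. Nfe2l1 in hypoxia was at -0.01 without hypoxia control replicate 3. Member counts stayed within 1.5 times the main count under each alternative. Leaving out 1 array gave 5 to 7 members in hypoxia, 7 to 7 in Si1 and 6 to 7 in Si6. Between the negative control and the hypoxia control 10 of the 62 wider pathway genes passed, where 15.3% of all genes did. Without the lowest 50% of genes 16 passed, in a set with fewer genes tested, and the share over that set is not given here. Without variance moderation or with median centring 1 call each was lost, Gclm at 0.21 (adjusted p = 0.053, range 0.010 to 0.216) and Nfe2l2 at -0.12 (adjusted p = 0.073, range 3.7e-04 to 0.073), both in the siRNA mean against normoxia. Limma fitted to only the compared groups lost Srxn1 in hypoxia (adjusted p = 0.053) and Gclc in the negative control against normoxia (adjusted p = 0.060). Srxn1 in Si1 against normoxia was lost in that fit (adjusted p = 0.092) and with array weights (adjusted p = 0.083). With the replicate block, 6 members passed in hypoxia, 7 in Si1, 6 in Si6 and 8 between the siRNAs, and it changed no member's call. The letters do not pair the arrays, since 3 of 30 same-letter pairs correlated above 0.1 in their deviations from group means. The fitted median standard error was 0.076, so changes near 0.2 lie close to the limit of the design.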
